A study of Mus musculus with 4 samples.

Results

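The TNF superfamily comprises cytokines related to tumour necrosis factor and the receptors that bind them. Its members here were all gene symbols beginning with Tnfsf or Tnfrsf, together with Tnf, Lta, Ltb, Ltbr, Fas, Fasl, Cd40, Cd27, Cd70 and Eda2r. This rule used symbols and no measured values, but it was chosen with earlier results of these data known. It found 41 of the 23284 symbols in the deposited files, 16 ligands and 25 receptors. The genes were measured by RNA sequencing in bone marrow-derived macrophages, primary macrophages grown from the marrow of wild-type mice. All cultures, those of the vehicle group included, had first been given lipopolysaccharide (LPS) at 1 µg/ml for 1 h, so no library shows macrophages without LPS. For the next 24 h, 1 group of cultures (2 libraries) received recombinant mouse galectin-1, a lectin that binds galactosides, and the control cultures (2 libraries) phosphate-buffered saline, called vehicle here. The labels do not state the strain, sex or age of the mice, the dose of galectin-1, or whether libraries of a group came from separate cultures or animals. The spread behind the p-values is therefore that between these samples and may be technical.

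Most ligands of the family are trimeric membrane proteins that can be shed as soluble cytokines. Receptors with a cytoplasmic death domain can recruit caspases, and many of those without one bind TRAF adaptors and activate NF-kB. In macrophages LPS induces Tnf strongly, and membrane ligands such as OX40 ligand and the receptor CD40 take part in the dialogue with T cells.

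Values are FPKM, fragment numbers corrected for the length of the transcript and the size of the library, so levels can be set side by side between genes. The libraries summed to 557661 and 555507 FPKM with galectin-1 and 553191 and 541138 FPKM with vehicle. Their depths relative to vehicle replicate 1, read from the steps of low values, were 1.03 and 0.872 with galectin-1 and 0.969 for vehicle replicate 2, while the absolute depth is unknown. The label was checked on macrophage markers. All 10 listed markers were found, and their summed level was 10212 and 10195 FPKM with galectin-1, against 9414 and 9409 FPKM with vehicle. Lyz2 made up most of the sum, with 6269 and 6223 FPKM with galectin-1, against 5761 and 5642 FPKM with vehicle. Of the 10, 9 were tested and none passed. The groups did not overlap for any of the 9, against 55.4% of all genes tested. With galectin-1 8 were higher and Mertk was lower. The scavenger receptor gene Cd163 stayed at or below 0.212 FPKM. Of 10 listed T and NK cell markers, the T cell receptor genes Cd3e and Cd3g were listed at 0 in all 4 libraries, but 4 others reached a mean of 1 FPKM. Il7r, the interleukin-7 receptor, averaged 37.9 FPKM with galectin-1 and 38.6 FPKM with vehicle, and the kinase gene Lck 21.0 FPKM with galectin-1 and 20.8 FPKM with vehicle. Cd28 and Cd4 lay between 3.46 and 4.29 FPKM, and none of the 4 passed. Of 6 listed B and plasma cell markers, Cd79b averaged 2.86 FPKM with galectin-1 and 3.07 FPKM with vehicle and did not pass, and the B cell factor Pax5 reached at most 0.0698 FPKM. Lgals1, the gene of galectin-1 itself, had 793 and 836 FPKM in macrophages given the recombinant protein and 778 and 764 FPKM with vehicle.

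With galectin-1 2 members fell, none rose and 21 of the 23 tested did not pass. Tnfrsf14, encoding the herpesvirus entry mediator HVEM, fell by 37.5% in FPKM, and Tnfsf4, encoding OX40 ligand, fell by 21.3%. Tnf itself did not pass, with a limma adjusted p of 0.520. Of the 16 ligands 9 were tested, and of the 25 receptors 14. Differences were negative for 8 of the 9 ligands and for 7 of the 14 receptors, against 4626 of all 9380 genes tested. The remaining 18 members had a mean under 1 FPKM over the 4 libraries and were not tested; no member passed that minimum in 1 group only.

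The groups were compared with limma on log2(FPKM + 1), adjusted over the 9380 genes whose mean reached 1 FPKM, at a 2-sided adjusted p under 0.05. Over all those genes 112, or 1.19%, were called, 57 of them higher (0.608%) and 55 lower (0.586%). After quantile normalization the split was 24 higher and 47 lower, with 33.8% of the calls higher in place of 50.9%. Among the 23 members tested 8.70% were called, both lower. An unadjusted p under 0.05 was found for 13 of the 23 members, or 56.5%, against 23.2% of all genes tested. The groups did not overlap for 20 of the 23 members, against 55.4% of all genes. The median log2 fold change was -0.059 over the members, -0.11 over the ligands and 0.011 over the receptors, against 0.0024 over all genes tested. The median of the absolute change was 0.14 over the members and 0.091 over all genes.

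**Figure D1:**
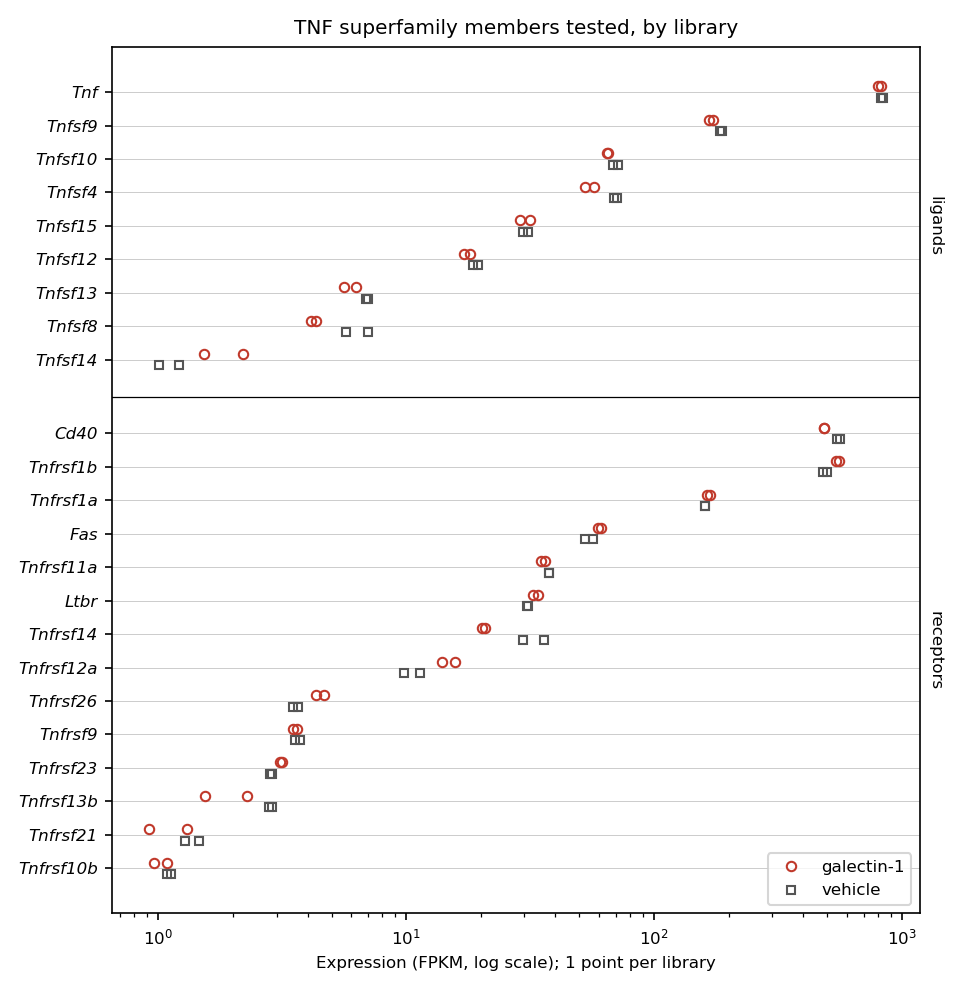
FPKM on a log scale for the 9 ligands and 14 receptors tested, 1 point per library, galectin-1 as circles above vehicle as squares in each row. The galectin-1 libraries lie below the vehicle libraries for Tnfrsf14 and Tnfsf4 and above them for Tnfrsf12a, and the levels span from about 1 FPKM to the 837 FPKM of Tnf in vehicle replicate 1.

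Tnfrsf14 had 20.2 and 20.7 FPKM with galectin-1, against 29.6 and 35.9 FPKM with vehicle. Both galectin-1 libraries lay below both vehicle libraries, and the vehicle libraries lay farther apart than the galectin-1 libraries. The means were 20.4 ± 0.371 FPKM with galectin-1 and 32.7 ± 4.42 FPKM with vehicle (SD, n = 2 each), for a log2 fold change of -0.65 (standard error 0.089) and a 95% interval from -0.87 to -0.43 (limma, adjusted p = 0.0446). HVEM is the receptor of the ligand LIGHT and of soluble lymphotoxin alpha, and it also engages the inhibitory receptor BTLA of lymphocytes. Among the 4537 tested genes that reached a mean of 10 FPKM, its log2 fold change was the 18th from the lowest. The call held without vehicle replicate 1 (limma adjusted p = 0.0376). It did not hold without vehicle replicate 2 (0.116), galectin-1 replicate 1 (0.180) or galectin-1 replicate 2 (0.227), where the fold changes were -0.51, -0.63 and -0.66.

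Tnfrsf14 lies on chromosome 4 at 154918487 to 154928620 (GRCm38.p6, the assembly of mm10), on the minus strand, and no exon of another annotated gene overlaps its exons. A stretch of its RefSeq promoter window is shown because Tnfrsf14 is the called receptor. It is the part of the 250 bases before a RefSeq start site at 154928077 that holds no annotated exon. It covers 125 bases at chr4:154928203-154928327 on the minus strand, 5′ to 3′. That start site lies inside the gene's annotated span. The stretch does too, so it is not upstream of the gene's outer 5′ end at 154928620. Capitals mark the single place that matches a general kappa B form, GGG followed after any 5 bases by CC, which does so on both strands, 148 to 139 bases before the start site.
Tnfrsf14: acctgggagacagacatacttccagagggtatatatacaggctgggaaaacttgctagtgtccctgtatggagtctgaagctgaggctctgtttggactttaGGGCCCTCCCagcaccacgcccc
The form is common. It was found on either strand in 16686 of 32851 RefSeq promoter windows (50.8%) and in 23 of the 36 windows of the 32 members that the table holds (63.9%). The TATA box letters TATAAA, searched on both strands, were in 13.6% of all windows and 19.4% of the members' windows. They were not in the 250 bases before this Tnfrsf14 start site. A match describes these letters and not a bound site.

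Tnfsf4 was the ligand that fell. It had 57.1 and 52.8 FPKM with galectin-1, against 71.0 and 68.6 FPKM with vehicle, so that both galectin-1 libraries were lower. The means were 54.9 ± 3.05 FPKM with galectin-1 and 69.8 ± 1.69 FPKM with vehicle (SD, n = 2 each), for a log2 fold change of -0.34 (standard error 0.049) and a 95% interval from -0.46 to -0.22 (limma, adjusted p = 0.0453). OX40 ligand costimulates T cells through OX40, encoded by Tnfrsf4. Tnfrsf4 was near the floor at 0.0737 and 0.435 FPKM with galectin-1 and 0.607 and 0.705 FPKM with vehicle, and was not tested. The call of Tnfsf4 was lost whichever library was left out, with limma adjusted p from 0.146 to 0.222 and fold changes from -0.40 to -0.29. Both calls were also lost with no filter on low values (adjusted p = 0.145 for Tnfrsf14 and 0.142 for Tnfsf4) and in limma without the trend (0.138 for each). Tnfsf4 lies on chromosome 1 at 161395438 to 161418206, next to Tnfsf18.

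Mature dendritic cells are another source of OX40 ligand and CD40. Of 9 listed dendritic cell markers 3 were tested. Fscn1, encoding the actin bundler fascin, fell to 7.84 and 8.18 FPKM with galectin-1, against 11.3 and 11.7 FPKM with vehicle (log2 fold change -0.47, limma adjusted p = 0.0425). Ccr7, a receptor of migrating dendritic cells (-0.12), and the integrin gene Itgax (0.056) did not pass. The summed level of the 9 markers was 12.1 FPKM in each galectin-1 library, against 15.4 and 15.3 FPKM with vehicle. Without Fscn1 the other 8 summed to 4.27 and 3.91 FPKM with galectin-1, against 4.11 and 3.67 FPKM with vehicle, and 7 of them had the higher mean with galectin-1. None of the 9 was listed at 0 in all 4 libraries, and the defining progenitor receptor Flt3 stayed at or below 0.0478 FPKM. The part of dendritic cells in the lower Tnfsf4 was not tested, and in a bulk sample fewer cells of a type and less RNA per cell cannot be told apart.

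The TNF and lymphotoxin ligands were led by Tnf, the ligand with the highest level. It had 803 and 823 FPKM with galectin-1 and 837 and 825 FPKM with vehicle. The galectin-1 libraries were lower, though galectin-1 replicate 2 and vehicle replicate 2 were close to each other. The log2 fold change was -0.033 (standard error 0.028), with a 95% interval from -0.10 to 0.035 (limma, adjusted p = 0.520). Its neighbours on chromosome 17, Lta and Ltb, encode the lymphotoxins and lie with Tnf within 11.1 kb. Lta had 0.772 and 0.491 FPKM with galectin-1 and 0.734 and 1.26 FPKM with vehicle, and Ltb stayed at or below 0.279 FPKM in every library. The groups overlapped for both.

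The T cell costimulatory ligands comprised 7 genes, of which 5 were tested, Tnfsf4 fell, none rose and 4 did not pass. Tnfsf9, encoding the ligand of CD137, was the most abundant, with 167 and 172 FPKM with galectin-1 and 185 and 187 FPKM with vehicle. The galectin-1 libraries were lower without overlap (log2 fold change -0.13, 95% interval from -0.21 to -0.057, limma adjusted p = 0.0960). Tnfsf8, encoding CD30 ligand, had 4.32 and 4.12 FPKM with galectin-1, against 5.69 and 7.01 FPKM with vehicle. Its groups did not overlap either, with vehicle replicate 2 standing above the other vehicle library (-0.49, standard error 0.10, limma adjusted p = 0.0823).

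Tnfsf15, which encodes the ligand of death receptor DR3, had 28.8 and 31.5 FPKM with galectin-1 and 29.5 and 31.1 FPKM with vehicle. Here the groups overlapped, and the 95% interval of the log2 fold change ran from -0.15 to 0.14. Tnfsf14, encoding LIGHT, a ligand of HVEM and of the lymphotoxin beta receptor, was the only tested ligand with a positive difference. It had 1.52 and 2.201 FPKM with galectin-1, against 1.00 and 1.22 FPKM with vehicle (0.43, standard error 0.15, limma adjusted p = 0.158), and the log2 fold change was 0.26 without galectin-1 replicate 2. The level was close to the minimum of 1 FPKM, and the galectin-1 libraries differed from each other by more than the gap between the groups.

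Of the untested ligands in this class, Tnfsf18, encoding the ligand of the receptor GITR, had 0.489 and 0.844 FPKM with galectin-1 and 0.736 and 0.640 FPKM with vehicle. Cd70, whose product binds CD27, had 0.441 and 0.390 FPKM with galectin-1, and 0 and 0.234 FPKM with vehicle. Tnfsf9, Cd70 and Tnfsf14 lie within 88.9 kb of each other on chromosome 17. The tested neighbours Tnfsf9 and Tnfsf14 had differences of opposite sign.

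The death ligand Tnfsf10, encoding TRAIL, had 65.4 and 64.5 FPKM with galectin-1, against 68.2 and 71.6 FPKM with vehicle. The galectin-1 libraries were slightly lower (log2 fold change -0.10, standard error 0.039, limma adjusted p = 0.195). Fasl, the ligand of Fas, was listed at 0 in all 4 libraries.

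Of the 4 ligands acting on B cells and tissue cells 2 were tested, and neither passed. Tnfsf12, encoding TWEAK, had 18.1 and 17.1 FPKM with galectin-1 and 19.5 and 18.6 FPKM with vehicle (-0.11, limma adjusted p = 0.303). Tnfsf13, encoding the plasma cell survival factor APRIL, had 6.27 and 5.62 FPKM with galectin-1 and 7.01 and 6.88 FPKM with vehicle (-0.20, limma adjusted p = 0.20). The 2 genes lie next to each other on chromosome 11 and share exons with the annotated read-through gene Tnfsfm13, so fragments may have been divided between them. Tnfsf13b, encoding the B cell survival factor BAFF, was just under the minimum, with 0.656 and 0.553 FPKM with galectin-1 and 0.965 and 0.946 FPKM with vehicle, a difference of -36.7% that was not tested. Tnfsf11, encoding the osteoclast factor RANKL, was at 0 in 3 libraries and at 0.0344 FPKM in galectin-1 replicate 1. In all, 7 of the 9 tested ligands were lower in both galectin-1 libraries without overlap, where 26.2% of all tested genes were lower without overlap and 29.1% higher.

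**Figure D2:**
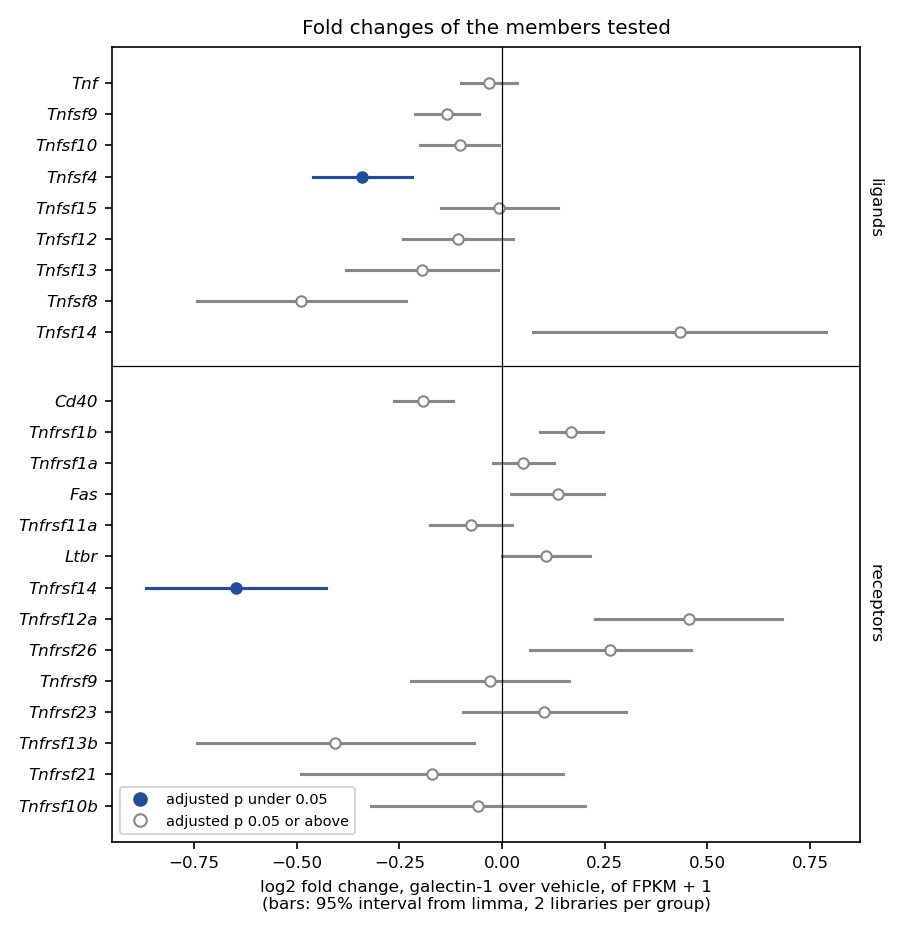
Log2 fold changes of FPKM + 1, galectin-1 over vehicle, for the 9 ligands and 14 receptors tested, with 95% intervals from limma as bars (2 libraries per group). Filled points are Tnfrsf14 (-0.65) and Tnfsf4 (-0.34), the members with an adjusted p under 0.05; the other 21 are open.

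The death domain receptors numbered 5, of which 4 were tested and none passed. Tnfrsf1a, encoding the broadly expressed TNF receptor TNFR1, had 164 and 167 FPKM with galectin-1, against 159.8 FPKM in each vehicle library (log2 fold change 0.052, 95% interval from -0.023 to 0.13, limma adjusted p = 0.361). Fas, the apoptosis receptor of Fas ligand, had 60.9 and 59.5 FPKM with galectin-1, against 56.6 and 52.8 FPKM with vehicle. The galectin-1 libraries were higher without overlap (0.14, 95% interval from 0.023 to 0.25, limma adjusted p = 0.162).

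The other death domain receptors were low. Tnfrsf10b, the mouse death receptor for TRAIL, had 0.963 and 1.08 FPKM with galectin-1 and 1.09 and 1.12 FPKM with vehicle. Tnfrsf21, encoding DR6, had 1.31 and 0.917 FPKM with galectin-1 and 1.28 and 1.45 FPKM with vehicle, with overlapping groups. Tnfrsf25, encoding DR3, the receptor for the product of Tnfsf15, stayed at or below 0.1001 FPKM.

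Of the 16 receptors without a death domain 8 were tested, Tnfrsf14 fell, none rose and 7 did not pass. Cd40, the receptor through which T cells activate macrophages, had 484 and 486 FPKM with galectin-1, against 545 and 563 FPKM with vehicle. Both galectin-1 libraries were lower (log2 fold change -0.19, standard error 0.029, 95% interval from -0.26 to -0.12), and the limma adjusted p of 0.0505 missed the threshold. Of 8 alternative settings that kept all libraries, Cd40 passed under 5 and the called Tnfsf4 under 6. Tnfrsf1b, encoding TNFR2, the inducible TNF receptor of immune cells, had 543 and 555 FPKM with galectin-1, against 479.7 and 497 FPKM with vehicle. Its libraries lay apart in the opposite direction (0.17, standard error 0.031, limma adjusted p = 0.0656).

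Cd40 and Tnfrsf1b were the receptors with the highest levels, and their order differed between the groups. Within a library the ratio of Cd40 to Tnfrsf1b in FPKM was 0.892 and 0.875 with galectin-1, against 1.14 and 1.13 with vehicle. The ratio of Tnfrsf1b to Tnfrsf1a was 3.31 and 3.32 with galectin-1, against 3.002 and 3.11 with vehicle. These ratios were chosen after the values were seen and have no test.

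Tnfrsf12a, encoding Fn14, the receptor of TWEAK, had 13.9 and 15.8 FPKM with galectin-1, against 9.78 and 11.4 FPKM with vehicle. On the scale of FPKM + 1 it had the highest positive log2 fold change of the members tested (0.45, standard error 0.092, 95% interval from 0.23 to 0.68), with a limma adjusted p of 0.0766. With 0.1 FPKM added in place of 1, Tnfsf14 was higher, at 0.68 against 0.49 for Tnfrsf12a. The 8 listed fibroblast and stromal markers summed to 19.3 and 18.7 FPKM with galectin-1, against 15.5 and 15.6 FPKM with vehicle. Of the 8, 7 had the higher mean with galectin-1 and 1 the lower, and none of the 5 tested passed. Bgn, the highest, had 6.69 and 7.67 FPKM with galectin-1, against 5.80 and 5.34 FPKM with vehicle. None of the 8 was listed at 0 in all libraries, and the collagen gene Col1a1 was at or below 1.73 FPKM. The part of such cells in the Tnfrsf12a difference was not tested.

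Ltbr, the lymphotoxin beta receptor, which also binds LIGHT, had 32.5 and 34.0 FPKM with galectin-1, against 30.8 and 30.9 FPKM with vehicle (0.11, limma adjusted p = 0.220). Within a library the ratio of Tnfrsf14 to Ltbr was 0.621 and 0.609 with galectin-1, against 0.962 and 1.16 with vehicle. This ratio, too, was chosen after the values were seen. Tnfrsf11a, encoding RANK, the receptor that drives osteoclast formation, had 36.2 and 35.0 FPKM with galectin-1, against 37.6 and 37.5 FPKM with vehicle (-0.076, limma adjusted p = 0.330). The 6 listed osteoclast markers summed to 25.9 and 26.9 FPKM with galectin-1, against 24.3 and 26.2 FPKM with vehicle, and the calcitonin receptor gene Calcr was at 0 throughout.

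Tnfrsf13b, encoding TACI, a receptor of APRIL and BAFF, had 1.55 and 2.28 FPKM with galectin-1, against 2.79 and 2.87 FPKM with vehicle. The galectin-1 libraries were lower and spread more widely than the vehicle libraries (-0.41, standard error 0.14, limma adjusted p = 0.162). The log2 fold change was -0.22 without galectin-1 replicate 1 and -0.59 without galectin-1 replicate 2. Tnfrsf9, encoding CD137, had 3.48 and 3.61 FPKM with galectin-1 and 3.56 and 3.72 FPKM with vehicle, with overlapping groups and a 95% interval from -0.22 to 0.16. The other receptors without a death domain were below the minimum. Tnfrsf8, encoding CD30, had 0.511 and 0.422 FPKM with galectin-1 and 0.368 and 0.271 FPKM with vehicle. Tnfrsf18, encoding GITR, was listed at 0 with galectin-1 and had 0.180 and 0.124 FPKM with vehicle. Eda2r, a receptor of an ectodysplasin isoform, ranged from 0.146 to 0.295 FPKM with galectin-1 and was at 0.215 and 0.377 FPKM with vehicle. Cd27, Tnfrsf17 and Tnfrsf19 were each at 0 in at least 1 library and at or below 0.137 FPKM, and Tnfrsf13c was at 0 in all 4.

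The decoy receptors and their relatives were weakly expressed. Tnfrsf23, which encodes a mouse decoy receptor of TRAIL, had 3.16 and 3.11 FPKM with galectin-1, against 2.88 and 2.82 FPKM with vehicle (0.10, limma adjusted p = 0.484). Tnfrsf26, a related gene of the same cluster, had 4.66 and 4.32 FPKM with galectin-1, against 3.66 and 3.48 FPKM with vehicle (0.26, 95% interval from 0.067 to 0.46, limma adjusted p = 0.137). The third gene of this cluster on chromosome 7, the TRAIL decoy gene Tnfrsf22, had 0.270 and 0.199 FPKM with galectin-1 and 0.417 and 0.287 FPKM with vehicle. The 3 genes are close relatives within 78.8 kb, and the annotated antisense transcript E230032D23Rik overlaps exons of Tnfrsf23 and Tnfrsf26. The labels do not say how fragments were assigned between them. Tnfrsf11b, encoding the RANKL decoy osteoprotegerin, stayed between 0.0948 and 0.165 FPKM.

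**Figure D3:**
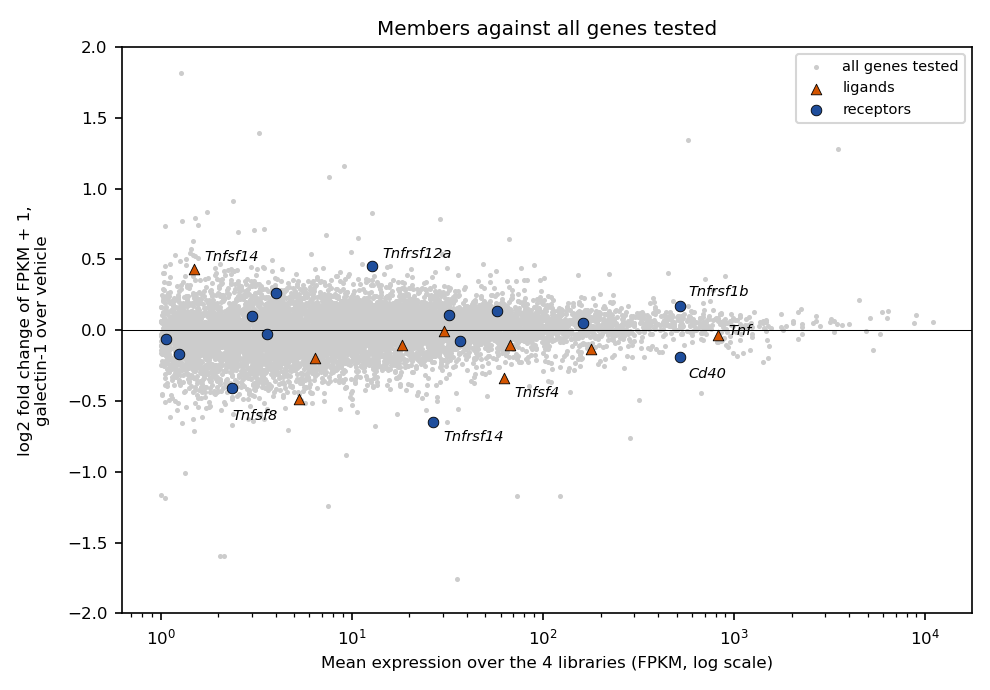
Log2 fold change of FPKM + 1, galectin-1 over vehicle, against mean FPKM over the 4 libraries on a log scale for all 9380 genes tested (grey), with the 9 ligands as triangles and the 14 receptors as circles; 29 genes lie beyond the plotted range of 2. Tnfrsf14 lies near the lower edge of genes of similar level, and Tnf lies near 0.

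By position, 22 of the 41 members lay in 9 groups of members within 200 kb of a neighbour. In the pair Tnfsf8 and Tnfsf15 on chromosome 4, 136.9 kb in span, the log2 fold changes were -0.49 and -0.0067. In the pair Ltbr and Tnfrsf1a on chromosome 6, whose group also holds Cd27, they were 0.11 and 0.052.

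Genes that act with these ligands and receptors were followed in 4 lists. Of 32 signalling adaptors and enzymes 31 were tested, none rose and none fell. In limma 9 of the 31 had an unadjusted p under 0.05, against 23.2% of all genes tested. The ubiquitin ligase gene Birc2 had 22.3 and 22.8 FPKM with galectin-1, against 25.5 and 26.9 FPKM with vehicle (log2 fold change -0.21, limma adjusted p = 0.0977). The Fas-binding protein gene Daxx had 397 and 415 FPKM with galectin-1, against 354 and 372 FPKM with vehicle (0.16), and Tab2, an adaptor of the kinase TAK1, had 0.12. The list median was -0.053, against 0.0024 over all genes tested.

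Of 25 NF-kB and TNF-induced genes 23 were tested and none passed, with a median of -0.0070. In limma 7 of the 23 had an unadjusted p under 0.05, against 23.2% of all genes tested. Tnfaip2, a TNF-inducible gene, had 1046 and 1050.2 FPKM with galectin-1, against 1183 and 1166 FPKM with vehicle (-0.16, limma adjusted p = 0.0541). Nfkb1, encoding the NF-kB precursor p105, had 197 and 199 FPKM with galectin-1, against 175 and 174 FPKM with vehicle (0.18, limma adjusted p = 0.0555). The early response gene Ier3 had a log2 fold change of 0.24. Members of this list thus had differences of both signs, 11 positive and 12 negative.

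Ligand shedding was covered by 9 genes, of which 8 were tested and none passed, with a median of 0.085. In limma 3 of the 8 had an unadjusted p under 0.05, against 23.2% of all genes tested. Furin, a proprotein convertase, had 100.3 and 98.8 FPKM with galectin-1, against 87.2 and 91.9 FPKM with vehicle (0.15, limma adjusted p = 0.106). Rhbdf2, encoding the iRhom partner of the TNF-releasing protease ADAM17, had 115 and 119 FPKM with galectin-1, against 107 and 109.8 FPKM with vehicle (0.11, limma adjusted p = 0.154).

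All 14 genes listed for Tnf mRNA turnover and translation were tested. Of these 2 rose, 12 did not pass and none fell, with a median of 0.088. Over all genes tested 0.608% were called higher. In limma 4 of the 14 had an unadjusted p under 0.05, against 23.2% of all genes tested. Zfp36, whose product tristetraprolin promotes decay of Tnf mRNA, rose to 809 and 802 FPKM with galectin-1, against 691 and 705 FPKM with vehicle (0.21, limma adjusted p = 0.0432). Mapkapk3, a kinase of the p38 cascade, rose to 42.5 and 42.7 FPKM with galectin-1, against 34.2 and 35.1 FPKM with vehicle (0.29, limma adjusted p = 0.0446). The groups did not overlap for either gene. Zfp36l1, a relative of Zfp36, had 3.52 and 4.07 FPKM with galectin-1 and 2.56 and 2.54 FPKM with vehicle (0.43, limma adjusted p = 0.0845). No gene of the list passed after quantile normalization, with no filter, in limma without the trend or with any 1 of the 4 libraries left out. Superfamily genes outside the rule were near 0: Cd40lg, the ligand of CD40, and Edar were listed at 0 in all libraries, and Eda, Ngfr and Relt were at or below 0.313 FPKM.

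**Figure D4:**
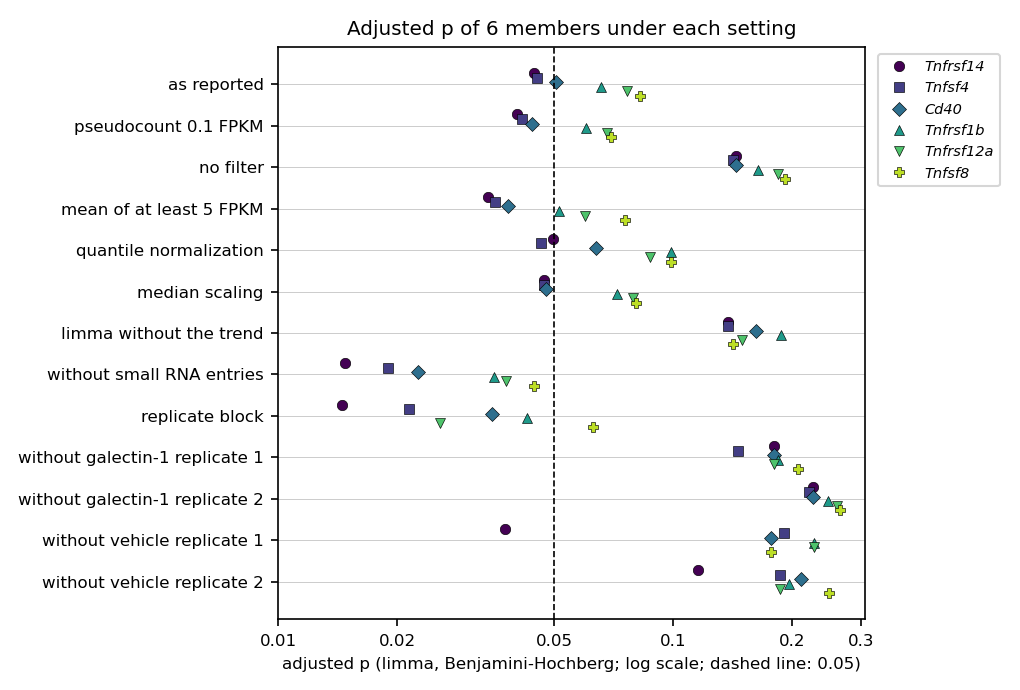
Adjusted p from limma on a log scale for Tnfrsf14, Tnfsf4, Cd40, Tnfrsf1b, Tnfrsf12a and Tnfsf8 in the fit as reported and under 12 alternatives; the dashed line marks 0.05. All 6 lie below the line without small RNA entries, and with 1 library left out Tnfrsf14 is below it without vehicle replicate 1.

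The number of members called moved with the genes that shared the fit. Without the small RNA entries (symbols such as those starting Mir or Snor), 6 of the 23 members tested passed. Over all genes tested in that fit 365 of 9337, or 3.91%, passed. Tnfrsf14, Tnfsf4, Cd40 and Tnfsf8 were lower, and Tnfrsf1b and Tnfrsf12a were higher, with galectin-1. Their fold changes were those given above, since the values were not altered.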

How the data were processed

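RNA sequencing of 4 libraries was analysed, 2 with galectin-1 and 2 with vehicle, from macrophages plated at 1000000 cells in each well of a 24-well plate; groups and replicate numbers came from the sample titles. Per the labels' protocols, the kit was stranded and selected poly(A) mRNA. The authors deposited FPKM values at 1 per gene symbol; the unit was read from the form of the files and from Cufflinks 2.2.1 in the submitters' processing notes, which also list SAMtools 0.1.19, Bowtie2 2.2.3 and TopHat2 2.0.13 with the build mm10, without roles. Neither states the annotation, the strand setting or the handling of multi-mapped reads. FPKM gives no counts, so no counting intervals are printed, and precision rests on 2 libraries per group.

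Values were used as log2(FPKM + 1), a scale that understates changes of low genes, in limma 3.58.1 (R 4.3.3) with a mean-variance trend, 2 residual and 3.89 prior degrees of freedom, and Benjamini-Hochberg adjustment over 9380 genes. The members and lists were chosen with earlier results of these data known. Members with a mean of at least 1 FPKM were to be named by their values in each library, and of each list the called genes and up to 3 others of smallest p. List symbols were matched directly or through RefSeq synonyms; Ly6g alone was not found. Coordinates (from 1) and promoters are RefSeq's for GRCm38.p6, exons GENCODE's. No libraries held identical values. The closing section gives 12 alternatives.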

Additional observations from a re-analysis of the deposited data

How the results depend on the processing

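The direction of Tnfrsf14, Tnfsf4, Cd40, Tnfrsf1b, Tnfrsf12a and Tnfsf8 was the same under all 12 alternatives. Groups without overlap ensure this for the 4 that leave out a library. The other filters, the fit without the trend, the removal of small RNA entries and the replicate block do not alter a member's fold change. Only the other pseudocount, quantile normalization and median scaling could have changed the direction. Of the 23 members tested 21 had no call to lose, so an unchanged call says little for them. Of 269 comparisons of a member's value with an alternative, 245 kept direction and call. Another 10 gained a call, 11, all of Tnfrsf14 or Tnfsf4, lost it and 3 changed sign. The 3 were members near 0: Tnfrsf9 had 0.015 after quantile normalization, and Tnfsf15 ranged from -0.068 without galectin-1 replicate 2 to 0.055 without galectin-1 replicate 1, and was 0.029 without vehicle replicate 2. The causes of these shifts were not tested. With no filter 0 members and 3 genes in all were called (2552 at an unadjusted p under 0.05), and in limma without the trend 0 members and 2 genes (1939). With 1 library left out, members called ranged from 0 to 1 and genes from 12 to 16; the lone library of an arm is then assumed to vary like the others. With the minimum at 5 FPKM 226 genes were called, and after quantile normalization 71. Without small RNA entries it was 365 genes and 6 members. The members' median log2 fold change was -0.029 with no filter, -0.089 with the minimum at 5 FPKM, -0.088 after quantile normalization, and from -0.071 to -0.016 with 1 library left out.

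In the list of NF-kB and TNF-induced genes 1 passed with a pseudocount of 0.1 FPKM and with median scaling, 2 with the minimum at 5 FPKM and 4 without small RNA entries. In the list of Tnf mRNA turnover and translation 0 passed with no filter, after quantile normalization, in limma without the trend and with any 1 library left out (from 0 to 0). Replicates of equal number share only a number: deviations of same-numbered libraries had a correlation over genes of 0.01, from 2 pairs. A fit with the replicate block called 240 genes, 5 members, 2 genes of the NF-kB list and 1 signalling adaptor. Without read counts, the depth behind values under 1 FPKM cannot be given, and differences there were not resolved.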
